A study of Mus musculus with 20 samples.

Results

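Of the 55376 genes counted in sorted endothelial cells of mouse sciatic nerve, the 10 described here take part in Wnt signalling or read it out. They are 4 receptors and co-receptors (Fzd4, Fzd6, Lrp5, Lrp6), 2 DNA-binding effectors (Lef1, Tcf7) and 4 genes widely used as targets or readouts (Axin2, Apcdd1, Nkd1, Tnfrsf19). They were picked by symbol, and all 10 passed the filter on low counts in both experiments, among 20409 genes tested in the first and 16227 in the second. The first experiment compared adult mice carrying an inducible Cre under the Cdh5 promoter and a Rosa26 Tomato reporter (spelled Chd5CreER/R26-TdTomato in the labels), wild type for Plxnd1. It had uninjured nerve (intact, 5 libraries) and injured nerve at 7 days (7 dpi, 5 libraries) and 14 days (14 dpi, 4 libraries). The second used a Kdr-Cherry reporter at 7 dpi, with Chd5::CreER; Plxnd1fl/fl mice (KO, 3 libraries) set against Plxnd1 WT mice (WT, 3 libraries). The sources differ on the injury, a crush by the condition label while the design text speaks of the bridge region of the lesion. Nerves were pooled before sorting for reporter-positive, CD45-negative cells, so the animals behind a library are not known, and whether the WT mice carry Cre is not given in the sources used here.

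In canonical Wnt signalling, a Wnt or Norrin ligand binds a Frizzled receptor together with the co-receptor Lrp5 or Lrp6. Beta-catenin is then spared from destruction, enters the nucleus and activates genes through Lef1, Tcf7 and their relatives. In brain and retina this signal, received largely through Fzd4 in the retina, builds and keeps the blood-tissue barrier, and peripheral nerve also has a barrier in its endoneurial vessels. Axin2, Nkd1 and Apcdd1 are themselves negative regulators of the pathway, so their transcripts are feedback readouts. Tnfrsf19 (Troy) is a TNF receptor family member that is expressed in brain endothelium and is a Wnt target.

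Library totals ran from 19.06 to 34.18 M counts in the Tomato libraries and from 19.25 to 33.79 M in the Cherry libraries. None of the 10 endothelial marker genes (Pecam1, Cdh5, Kdr and others) was at 0 in every library of a group, and their summed level was 6554 to 9932 CPM (counts scaled for library size with TMM factors) at 7 dpi and 5458 to 7004 CPM at 14 dpi, against 3405 to 8130 CPM in intact nerve. Of these 10, 6 rose and 1 fell at 7 dpi (median log2 fold change 0.58), and 2 rose and 1 fell at 14 dpi. Markers of other cells were also present. The 8 perineurial markers summed to 294 to 1009 CPM at 7 dpi and 1341 to 3036 CPM at 14 dpi, against 2591 to 5591 CPM in intact nerve, and all 8 fell at 7 dpi and 4 at 14 dpi. The 9 fibroblast markers summed to 4434 to 19730 CPM at 7 dpi and 16250 to 35690 CPM at 14 dpi, against 9078 to 16630 CPM in intact nerve. Of these 9, 5 rose and 1 fell at 7 dpi, and 7 rose and 0 fell at 14 dpi. Of 8 mural markers 6 fell at 7 dpi and of 8 Schwann cell markers 5 fell, while at 14 dpi 4 of the Schwann cell markers were above and 1 below intact nerve and 6 were above 7 dpi. All 5 erythrocyte markers fell at 7 dpi and all 5 were higher at 14 than at 7 dpi, as were the 4 Wnt targets. Against intact nerve, 0 of the 5 passed at 14 dpi, whereas all 4 Wnt targets were still lower. The erythrocyte sums were 10.3 to 55.1 CPM at 7 dpi and 57.5 to 111.8 CPM at 14 dpi, against 41.1 to 156.4 CPM in intact nerve. The 8 macrophage and leukocyte markers summed to 300.3 CPM in 7 dpi replicate 4 and 1018 CPM in 14 dpi replicate 3, and to 9.89 to 35.1 CPM in the other 12 Tomato libraries. The 4 Y-linked genes summed to 215.7 CPM in 7 dpi replicate 1 and to 0.03 CPM or less in the other 4 libraries at 7 dpi. They summed to 267.9 and 182.4 CPM in the 2 libraries of batch 1292 at 14 dpi and to 0 in the 2 of batch 1133, against 40.1 to 239.6 CPM in all 5 intact libraries. Y-linked RNA thus differed largely with injury, and in batch 1133 Y-linked RNA and injury cannot be told apart. The perineurial and fibroblast sums were lower in the Cherry libraries, with perineurial sums of 76.5 to 109.6 CPM in KO and 78.0 to 125.7 CPM in WT and fibroblast sums of 840.0 to 3287 CPM in KO and 922 to 2293 CPM in WT. In these bulk samples, fewer cells of a type and less RNA per cell cannot be told apart. Beyond the perineurial and Y-linked terms reported with the results, the part of these other cells in them was not tested.

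Promoters are shown for 2 members, Axin2 as the most general readout of the pathway and Tnfrsf19 as the gene with the largest fall after injury. The promoter set searched held none of Fzd6, Lrp5, Lrp6 or Apcdd1, and whether the reference lists any for them is not reported here. It held RefSeq promoter sequences (GRCm38.p6, 250 bases before to 50 after a start) of the other 6 of the 10 genes, 11 promoters in all. They were searched on both strands for the Lef1 and Tcf core letters CTTTGAT and CTTTGAA, and capitals mark the single match, which reads CTTTGAT on the strand opposite to the gene.
Axin2, chr11:108920099-108920398 (+): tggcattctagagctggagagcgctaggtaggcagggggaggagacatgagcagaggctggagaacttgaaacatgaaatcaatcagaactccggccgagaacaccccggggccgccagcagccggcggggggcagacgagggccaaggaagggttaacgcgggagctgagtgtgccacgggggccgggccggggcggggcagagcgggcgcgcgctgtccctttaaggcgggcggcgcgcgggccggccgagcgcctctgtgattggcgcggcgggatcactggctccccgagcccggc
Tnfrsf19, chr14:61037938-61038237 (-): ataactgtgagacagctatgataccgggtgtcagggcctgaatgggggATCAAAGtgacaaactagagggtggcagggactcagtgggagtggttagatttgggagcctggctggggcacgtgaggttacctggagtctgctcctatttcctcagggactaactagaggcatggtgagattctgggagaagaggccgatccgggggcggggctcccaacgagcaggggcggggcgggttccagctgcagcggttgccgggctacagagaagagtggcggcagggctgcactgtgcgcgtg
The match starts 202 bases before the listed Tnfrsf19 start, which lies inside the gene as the count table gives it, and a further Tnfrsf19 start upstream of that had none. Across 32851 promoters of this length, 8.65% held one of the motifs, 3.73% CTTTGAT and 5.14% CTTTGAA, so 1 of 11 is near what any promoter set holds. The letters describe this window alone; sites further away were not searched.

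At 7 dpi the effectors and targets of the pathway were far lower than in intact nerve, whereas among the receptors Lrp6 fell by less, Fzd6 rose slightly and Fzd4 and Lrp5 did not pass the test. Of the 10 genes, 7 fell and 1 rose (edgeR quasi-likelihood test, adjusted p under 0.05), against 16.3% and 15.7% of all genes tested. The median log2 fold change was -1.75 over the 10 genes and -0.10 over all genes. The fall reached both effectors, all 4 targets and the co-receptor Lrp6. By 14 dpi the effector Lef1 and all 4 targets stood between their 7 dpi and intact levels.

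**Figure D1:**
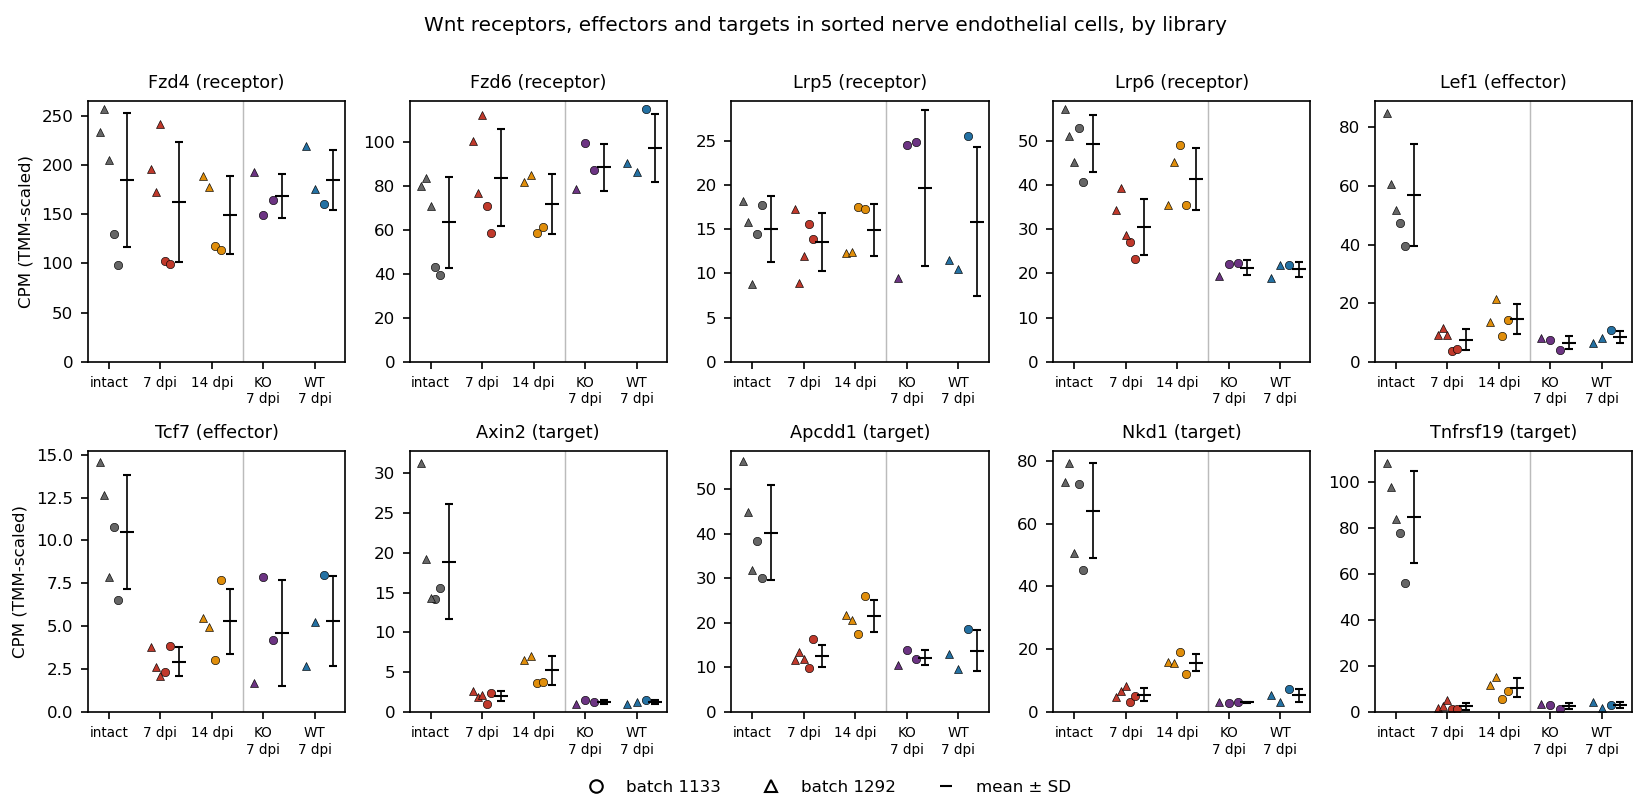
TMM-scaled CPM of each gene (vertical axes, linear, starting at 0) in every library, by group, with mean ± SD beside the points; circles are batch 1133 and triangles batch 1292. Lef1, Axin2, Apcdd1, Nkd1 and Tnfrsf19 are highest in intact nerve and lowest at 7 dpi in the Tomato libraries, whereas Fzd4 differs more by batch than by group.

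Fzd4, the Frizzled that receives Norrin (chromosome 7, 89404355-89413134, plus strand, GRCm38), had the highest level per length of the 10 genes in every group. Its CPM was 234, 258, 206, 130.1 and 98.9 in intact nerve, 196, 173, 242, 102 and 99.3 at 7 dpi, and 189.1, 178, 118 and 114 at 14 dpi. The groups overlapped throughout. Its log2 fold change was -0.19 ± 0.13 (SE, here and below; edgeR adjusted p = 0.319; 95% interval -0.46 to 0.09) at 7 dpi and -0.17 ± 0.14 (adjusted p = 0.545; interval -0.46 to 0.13) at 14 dpi. The labelled batch separated the libraries instead: all 6 Tomato libraries of batch 1133 had 98.9 to 130.1 CPM and all 8 of batch 1292 had 173 to 258 CPM.

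Fzd6, a Frizzled better known for planar cell polarity (chromosome 15, 39006034-39038188, plus strand), was the 1 gene that rose at 7 dpi, by 0.43 ± 0.13 (edgeR adjusted p = 0.0159). It had 80.0, 83.5, 70.8, 43.1 and 39.5 CPM in the intact libraries, 100.2, 76.4, 112, 70.5 and 58.5 CPM at 7 dpi, and 81.8, 84.6, 58.6 and 61.0 CPM at 14 dpi. The groups overlapped, and the rise showed within each batch, by 0.63 in batch 1133 and 0.28 in batch 1292 as a difference of mean log2(CPM + 1). The call is fragile: the exact two-sided permutation p, which ignores batch, was 0.198, and the edgeR call was lost without 7 dpi replicate 3 (adjusted p = 0.0506) or replicate 4 (0.0560). When libraries were scaled to the 10 endothelial markers the sign turned, to -0.10 (adjusted p = 0.490). Of the 21 alternatives tried at 7 dpi, 12 called the rise of Fzd6.

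The co-receptors Lrp5 (chromosome 19, 3584828-3686564, minus strand) and Lrp6 (chromosome 6, 134446476-134566913, minus strand) differed in their calls at 7 dpi. They were not tested against each other. Lrp6 had 57.2, 51.1, 45.1, 52.8 and 40.6 CPM in the intact libraries, 34.3, 39.2, 28.7, 27.0 and 23.3 CPM at 7 dpi, and 35.5, 45.3, 49.1 and 35.5 CPM at 14 dpi. All 7 dpi libraries lay below all intact ones, and the 14 dpi libraries overlapped both. Lrp6 fell by 0.70 ± 0.15 at 7 dpi (edgeR adjusted p = 0.00159), and its value at 14 dpi was -0.23 ± 0.16 (adjusted p = 0.444). Lrp5 had 18.2, 15.8, 8.84, 14.4 and 17.7 CPM in the intact libraries, 17.3, 8.85, 11.99, 15.6 and 13.9 CPM at 7 dpi, and 12.3, 12.4, 17.5 and 17.3 CPM at 14 dpi. Its 3 groups overlapped throughout, with log2 fold changes of -0.15 ± 0.20 at 7 dpi (adjusted p = 0.641; interval -0.58 to 0.28) and -0.05 ± 0.22 at 14 dpi (adjusted p = 0.936; interval -0.51 to 0.40).

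With libraries scaled to the endothelial markers instead of TMM, the median of all genes moved from -0.10 to -0.64 at 7 dpi, and Fzd4 (-0.71, edgeR adjusted p = 9.77e-05) and Lrp5 (-0.68, 0.0193) also passed as lower. Called genes then split into 1237 higher and 7399 lower, against 3202 higher and 3333 lower with TMM. Fzd4 and Lrp5 stood near that shifted median and Fzd6 above it, and the effectors and targets stood far below it under both scalings.

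Lef1, the high-mobility-group transcription factor that carries beta-catenin to DNA (chromosome 3, 131110471-131224356, plus strand), had 85.0, 60.7, 51.9, 47.3 and 39.5 CPM in intact nerve. It had 9.20, 11.6, 9.16, 3.52 and 4.36 CPM at 7 dpi and 13.5, 21.3, 8.94 and 14.3 CPM at 14 dpi. Every injured library lay below every intact library, and the 7 and 14 dpi libraries overlapped. The 7 dpi mean was 13.3% and the 14 dpi mean 25.5% of the intact mean. Lef1 fell by 2.996 ± 0.22 on the log2 scale at 7 dpi (edgeR adjusted p = 3.41e-08) and by 1.89 ± 0.22 at 14 dpi (2.86e-05). An antisense gene model, Gm43352, covers 34.5% of the exon bases of Lef1; without a stated strand setting their reads cannot be told apart, and Gm43352 itself was counted at 0.0396 to 2.17 CPM.

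Tcf7 (chromosome 11, 52252371-52283014, minus strand), the Lef1 relative also called TCF1, was the less abundant effector in intact nerve, with a mean of 3.99 CPM per kilobase against 16.2 for Lef1. It had 14.6, 12.7, 7.85, 10.8 and 6.55 CPM in the intact libraries, 3.78, 2.61, 2.08, 2.33 and 3.87 CPM at 7 dpi, and 5.45, 4.95, 3.01 and 7.68 CPM at 14 dpi. Intact and 7 dpi libraries did not overlap, whereas 1 library at 14 dpi reached into the intact range. It fell by 1.82 ± 0.30 at 7 dpi (edgeR adjusted p = 1.48e-04). The 14 dpi value of -0.97 ± 0.31 missed the threshold (adjusted p = 0.0518), and was called with DESeq2 (0.00953) and 3 other scalings (0.0113 to 0.0377).

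Tnfrsf19 (chromosome 14, 60963875-61046490, minus strand) moved most. It had 108, 97.9, 84.0, 77.7 and 56.1 CPM in the intact libraries, 1.48, 2.71, 5.21, 1.46 and 1.13 CPM at 7 dpi, and 11.7, 15.4, 5.75 and 8.94 CPM at 14 dpi. The 3 groups did not overlap. Its fall was 5.22 ± 0.29 on the log2 scale at 7 dpi (edgeR adjusted p = 2.06e-09), which left 2.83% of the intact mean, and 2.99 ± 0.28 at 14 dpi (3.34e-06), which left 12.3%.

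Nkd1, a Dishevelled-binding inhibitor (chromosome 8, 88521354-88594884, plus strand), showed the next largest fall. It had 73.4, 79.1, 50.5, 72.4 and 45.1 CPM in the intact libraries, 4.70, 6.49, 8.33, 3.09 and 4.97 CPM at 7 dpi, and 15.8, 15.6, 18.96 and 12.2 CPM at 14 dpi. Again no group overlapped another. Nkd1 fell by 3.56 ± 0.23 at 7 dpi (edgeR adjusted p = 1.13e-08) and by 1.99 ± 0.24 at 14 dpi (2.82e-05).

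Axin2, the inducible scaffold of the beta-catenin destruction complex (chromosome 11, 108920349-108950783, plus strand), had CPM values of 31.3, 19.2, 14.3, 14.2 and 15.5 in the intact libraries. It had 2.66, 1.82, 2.08, 0.949 and 2.38 CPM at 7 dpi and 6.54, 7.03, 3.58 and 3.77 CPM at 14 dpi. The 3 groups did not overlap, and the lowest 7 dpi library rested on 24 counts. Axin2 fell by 3.23 ± 0.27 at 7 dpi (edgeR adjusted p = 1.40e-07) and by 1.83 ± 0.27 at 14 dpi (2.11e-04).

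Apcdd1, a membrane inhibitor that binds Wnt and Lrp proteins (chromosome 18, 62922231-62961179, plus strand), had the smallest fall of the 4 targets. It had 56.3, 44.98, 31.8, 38.4 and 30.0 CPM in the intact libraries, 11.7, 13.5, 11.8, 9.77 and 16.3 CPM at 7 dpi, and 21.8, 20.6, 17.6 and 26.1 CPM at 14 dpi. The groups were again apart. Apcdd1 fell by 1.67 ± 0.19 at 7 dpi (edgeR adjusted p = 4.37e-06) and by 0.89 ± 0.20 at 14 dpi (0.00690).

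Per library, every 7 dpi value lay below every intact value for 7 of the 10 genes, which held for 10.6% of all genes tested. At 14 dpi 5 of the 10 fell and 0 rose, against 5.09% and 6.86% of all genes, and the median was -0.93 over the 10 genes and 0.0047 over all genes. At an unadjusted edgeR p under 0.05 the counts were 6 lower and 0 higher, as they were by DESeq2, and 10.3% of all genes were lower at that p. Scaled to endothelial markers, 7 of the 10, Fzd4 (-0.44, adjusted p = 0.0206) and Tcf7 now among them, and 1921 of all genes were lower and 774 of all genes higher, against 1038 lower and 1401 higher with TMM, with the median of all genes at -0.27. The 5 that fell at 14 dpi were also the 5 of which every library lay below every intact library, which held for 4.73% of all genes. The falls held in direction within each batch: at 7 dpi the differences of mean log2(CPM + 1) for Tnfrsf19 were -4.87 in batch 1133 and -4.66 in batch 1292, and for Lef1 -3.17 and -2.58, in that order. They were -0.86 and -0.58 for Lrp6 and -1.227 and -1.715 for Tcf7. Tested in batch 1133 alone, Lef1 and the 4 targets passed as lower at 7 dpi, whereas Lrp6 and Tcf7 did not.

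**Figure D2:**
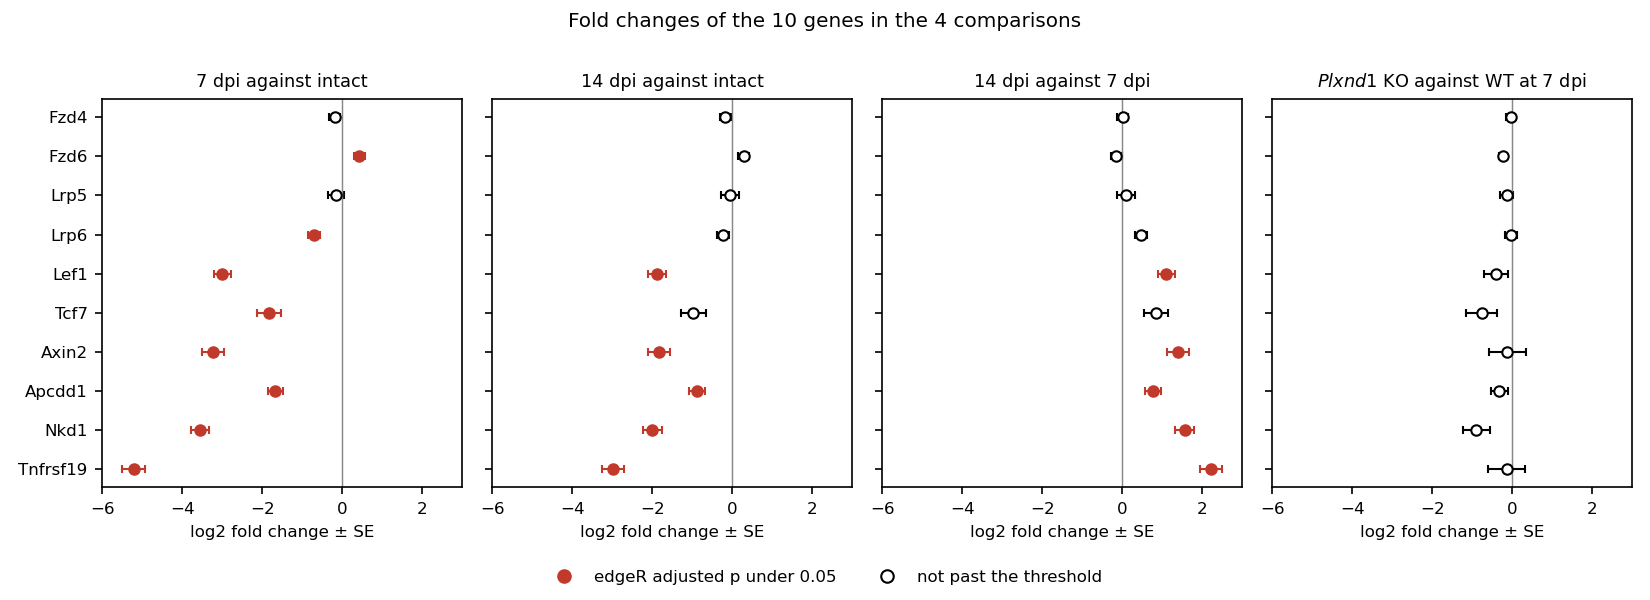
Log2 fold change ± SE (horizontal axes) of each gene in the 4 comparisons; filled red points passed an edgeR adjusted p of 0.05. Effectors and targets lie left of 0 at 7 dpi (-1.67 to -5.22) and closer to 0 at 14 dpi (-0.89 to -2.99), and no gene passed in the KO comparison.

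Between the injured stages, 5 of the 10 genes were higher at 14 dpi than at 7 dpi and 0 were lower, against 5.73% and 4.20% of all genes tested. The median of the 10 was 0.81 and that of all genes 0.06. By DESeq2, and at an unadjusted edgeR p under 0.05, 7 were higher and 0 lower, with 12.7% of all genes higher at that p. Scaled to endothelial markers, 7 of the 10 were higher, with 2189 of all genes higher and 407 lower, against 1170 and 857 with TMM, and a median of all genes of 0.32. The risers were Tnfrsf19 (2.23 ± 0.28, edgeR adjusted p = 1.16e-04), Nkd1 (1.56 ± 0.23, 4.90e-04), Axin2 (1.40 ± 0.27, 0.00320), Lef1 (1.11 ± 0.22, 0.00400) and Apcdd1 (0.78 ± 0.20, 0.0189). All but Lef1 had every 14 dpi library above every 7 dpi library, which held for 5.04% of all genes. Without 14 dpi replicate 4 the Apcdd1 call was lost (0.63, adjusted p = 0.0611). Tcf7 (0.85 ± 0.31, adjusted p = 0.0994) and Lrp6 (0.47 ± 0.16, 0.0743) did not pass. These comparisons share their 7 dpi and intact libraries, so their values are not independent.

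Perineurial RNA moved with these genes, being highest in intact nerve, lowest at 7 dpi and between them at 14 dpi. The sums at 7 dpi (294 to 1009 CPM) overlapped neither those of intact nerve (2591 to 5591 CPM) nor those at 14 dpi (1341 to 3036 CPM). A perineurial term thus largely follows the injury groups, and at 7 dpi perineurial RNA and injury cannot be told apart by it. With the mean log2 CPM of the 8 perineurial markers added to the model, Lef1 (-2.80, edgeR adjusted p = 0.00541), Axin2 (-3.53, 0.00696), Nkd1 (-4.34, 1.99e-04) and Tnfrsf19 (-6.50, 3.92e-05) passed as lower at 7 dpi. Lrp6 (-0.25, 0.741), Tcf7 (-1.33, 0.357), Apcdd1 (-1.67, 0.0740) and the rise of Fzd6 (0.17, 0.813) did not. Of all genes, 670 then passed. With the Y-linked sum as the added term instead, all 7 falls at 7 dpi passed and Fzd6 did not (adjusted p = 0.211). In the single 7 dpi library with Y-linked RNA, replicate 1, Lef1 stood at 9.20 CPM and Tnfrsf19 at 1.48 CPM, within the range of the other 7 dpi libraries. Without 7 dpi replicate 4, which was high in macrophage markers, the 7 falls passed, and without 14 dpi replicate 3 the 5 falls at 14 dpi did. At 14 dpi Lef1, Axin2, Nkd1 and Tnfrsf19 passed with the perineurial term, and between 14 and 7 dpi Nkd1 (2.03, 0.0140) and Tnfrsf19 (3.004, 0.00353) did.

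**Figure D3:**
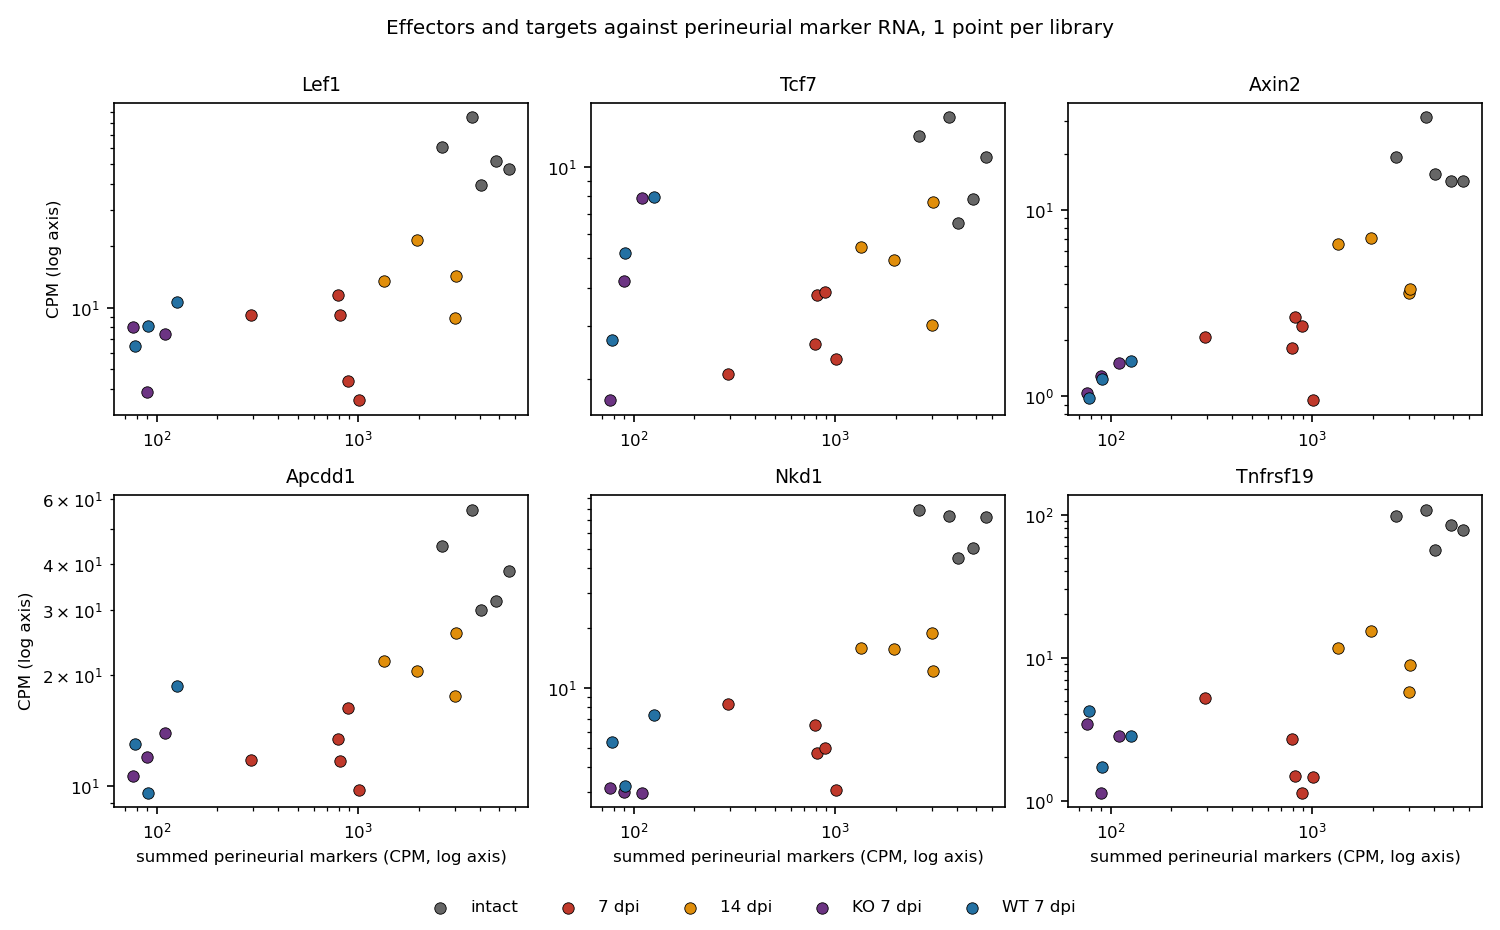
CPM of the 6 effectors and targets against the summed CPM of the 8 perineurial markers, both on log axes, 1 point per library. Within the Tomato libraries both run from low at 7 dpi to high in intact nerve, whereas the Cherry libraries at 7 dpi have perineurial sums of 76.5 to 125.7 CPM and gene levels near those of the Tomato 7 dpi libraries, other than Tcf7, which reaches 7.97 CPM.

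The Cherry libraries give the 7 dpi levels of these genes with little perineurial RNA, although with another reporter and a separate normalization, so the levels are set side by side as a description. Apcdd1 ran from 9.61 to 18.7 CPM in the 6 Cherry libraries and from 9.77 to 16.3 CPM in the Tomato 7 dpi libraries. For Lef1 the ranges were 3.87 to 10.7 and 3.52 to 11.6 CPM, and for Tnfrsf19 1.14 to 4.20 and 1.13 to 5.21 CPM. For Nkd1 they were 2.97 to 7.32 and 3.09 to 8.33 CPM, whereas Tcf7 spread more widely in the Cherry libraries, from 1.70 to 7.97 CPM, against 2.08 to 3.87 CPM. Axin2 at 0.973 to 1.55 CPM lay in the lower part of the Tomato 7 dpi range of 0.949 to 2.66, and Lrp6 at 18.9 to 22.4 CPM lay below the Tomato range of 23.3 to 39.2. Intact nerve was not measured with the Cherry reporter.

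Ordered by mean level per length, the 10 genes changed places with injury. In intact nerve the order was Fzd4 (27.6 CPM per kilobase), Tnfrsf19 (18.6), Lef1 (16.2), Fzd6 (14.5), Nkd1 (14.1), Lrp6 (5.27), Axin2 (4.43), Tcf7 (3.99), Apcdd1 (3.71) and Lrp5 (2.50), with a gap in range only between Nkd1 and Lrp6. At 7 dpi Fzd4 (24.2) and Fzd6 (19.1) stood apart from the other 8, led by Lrp6 (3.26), and Tnfrsf19 (0.526) and Axin2 (0.465) were last. At 14 dpi Fzd4 (22.3) and Fzd6 (16.3) still stood apart from the rest, and Lrp6 (4.41), Lef1 (4.13) and Nkd1 (3.43) followed. Neighbours in these orders overlapped in range other than at those gaps.

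Across the 14 Tomato libraries the effectors and targets followed each other closely, with Pearson r of log2(CPM + 1) from 0.861 (Nkd1 and Tcf7) to 0.977 (Nkd1 and Tnfrsf19). Fzd4 had r of 0.764 with Fzd6 and at most 0.447 with the effectors and targets. Among 10027 genes, those most like Lef1 were Eps8l2 (0.989), Degs2 (0.985) and Prom1 (0.984). For Axin2 they were Spock2 (0.983), Hlf (0.973) and Slc35f2 (0.965), and for Tnfrsf19 they were Spock2 (0.986), Prom1 (0.984) and Slco1a4 (0.981), the last an organic anion transporter of brain endothelium. Those most like Fzd4 were Mrtfb (0.981), Parp14 (0.977) and Ppp1r16b (0.967). These points share libraries, the group differences and the batches, and the r values are descriptions.

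The other genes of the pathway were taken from a list of 88, of which 79 were tested in the Tomato libraries. At 7 dpi 33 fell, or 41.8% against 16.3% of all genes, and 11 rose, or 13.9% against 15.7% (median -0.55). At 14 dpi 13 fell, or 16.5% against 5.09%, and 6 rose, or 7.59% against 6.86% (median -0.18). Between 14 and 7 dpi 18 were higher at 14 dpi, or 22.8% against 5.73%, and 3 lower, or 3.80% against 4.20%. The shares that rose after injury were thus near those of all genes. Beta-catenin itself (Ctnnb1) averaged 632 ± 76.7 CPM in intact nerve (SD, n = 5), 714 ± 129 CPM at 7 dpi (n = 5) and 726 ± 148.1 CPM at 14 dpi (n = 4), a log2 fold change of 0.16 ± 0.13 at 7 dpi (edgeR adjusted p = 0.436). The effector Tcf7l2 had 0.46 ± 0.19 at 7 dpi (adjusted p = 0.0760). Of 17 intracellular transducers 4 fell (23.5%) and 1 rose (5.88%) at 7 dpi, against 16.3% and 15.7% of all genes, among them Dvl1 (-0.83 ± 0.18).

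Of 15 tested ligands 6 fell (40%) and 1 rose (6.67%) at 7 dpi, against 16.3% and 15.7% of all genes. Wnt6 averaged 142.9 ± 65.5 CPM in intact nerve, 18.8 ± 10.97 at 7 dpi and 81.6 ± 42.8 at 14 dpi (SD), a fall of 3.01 ± 0.35 at 7 dpi (edgeR adjusted p = 5.24e-06). Wnt2b fell by 3.37 ± 0.25 (5.33e-08), with 34.6 ± 10.5 CPM in intact nerve, 3.42 ± 1.08 at 7 dpi and 6.69 ± 2.96 at 14 dpi, and Wnt2 rose by 2.21 ± 0.63 (0.0118). Wnt5a, a ligand known for signalling without beta-catenin, was 1.76 ± 0.29 higher at 14 dpi than at 7 dpi (9.79e-04). In the Cherry libraries Wnt6 averaged 0.277 CPM in KO and 0.761 CPM in WT and Wnt2b 0.833 CPM in KO and 0.645 CPM in WT, where perineurial and fibroblast markers were also low.

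Of 14 other receptors and co-receptors 8 fell (57.1%) and 2 rose (14.3%) at 7 dpi, against 16.3% and 15.7% of all genes. The falls included Fzd1 (-1.81 ± 0.28), Fzd7 (-1.64 ± 0.27) and Fzd10 (-1.52 ± 0.51). Their log2 CPM, averaged over all Tomato libraries, was 5.72, 5.70 and -0.06, in that order. Over the Cherry libraries it was 2.81, 1.67 and -0.56, where perineurial and fibroblast markers were also low. The part of other cells in these falls was not tested. The 2 that rose were Tspan12 (0.34 ± 0.11, edgeR adjusted p = 0.0279), the tetraspanin that joins Norrin signalling at Fzd4, and Adgra2 (0.58 ± 0.16, 0.0122), the Gpr124 co-receptor of Wnt7 signalling in brain vessels. The 10 endothelial markers had a median of 0.58 at 7 dpi, and neither rise was examined with libraries scaled to them. In the R-spondin arm, which stabilises Frizzled receptors, 4 of 8 tested genes fell at 7 dpi (50%, against 16.3% of all genes). They included Rspo1 (-3.31 ± 0.39), Rspo3 (-1.87 ± 0.30) and the receptor-clearing ligase Znrf3 (-1.58 ± 0.16), a target of the pathway. Of this arm 5 genes were tested in the Cherry libraries, Rspo3 and Znrf3 among them but not Rspo1.

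Secreted inhibitors moved in both directions, with 5 of 11 higher (45.5%) and 3 lower (27.3%) at 7 dpi, against 15.7% and 16.3% of all genes. Dkk2, which binds Lrp co-receptors, averaged 3.89 ± 1.88 CPM in intact nerve, 23.3 ± 3.47 at 7 dpi and 10.2 ± 2.55 at 14 dpi (SD), a rise of 2.68 ± 0.21 at 7 dpi (edgeR adjusted p = 9.18e-08) and of 1.54 ± 0.22 at 14 dpi (1.48e-04). In the Cherry libraries Dkk2 was 19.7 ± 3.798 CPM in KO and 24.5 ± 2.46 CPM in WT (SD, n = 3 each), close to the Tomato 7 dpi level. Wif1 (4.01 ± 0.52) and Sfrp4 (3.94 ± 0.59) also rose at 7 dpi, and Sfrp5 fell by 3.13 ± 0.39. Sfrp4 had 19.1 CPM in KO and 8.41 CPM in WT in the Cherry libraries, against 266 CPM at 7 dpi in the Tomato libraries, whose fibroblast sums were higher. Averaged over all libraries of each experiment, Sfrp5 had a log2 CPM of 10.8 in Tomato and 1.29 in Cherry. For Wif1 these averages were 2.49 and -0.22. The part of other cells in the changes of Wif1, Sfrp4 and Sfrp5 was not tested.

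Of 10 tested barrier and transcription genes that depend on endothelial Wnt signalling in brain, 7 fell and 1 rose at 7 dpi. That is 70% and 10%, against 16.3% and 15.7% of all genes. At 14 dpi 7 fell and 1 rose as well, against 5.09% and 6.86% of all genes. Mfsd2a, a lipid transporter that restrains transcytosis, averaged 377 ± 64.1 CPM in intact nerve, 13.6 ± 10.8 at 7 dpi and 59.4 ± 17.3 at 14 dpi (SD), a fall of 4.92 ± 0.46 at 7 dpi (edgeR adjusted p = 5.80e-07). The transcription factor Foxq1 fell by 5.17 ± 0.41, the glucose transporter Slc2a1 by 2.71 ± 0.22 and the tight junction protein Cldn5 by 2.33 ± 0.18. Plvap, the diaphragm protein of leaky vessels that Wnt signalling holds down in brain, rose by 1.64 ± 0.30 (3.72e-04). Averaged over all libraries of each experiment, log2 CPM in Tomato and Cherry was 10.3 and 7.42 for Slc2a1 and 7.29 and 3.88 for Mfsd2a. It was 10.9 and 9.71 for Cldn5 and 10.8 and 11.9 for Plvap. All Cherry libraries are from 7 dpi, whereas the Tomato averages include intact nerve. The part of other cells in the changes of the barrier genes was not tested. Between 14 and 7 dpi, 5 of the 10 barrier genes were higher at 14 dpi (50%, against 5.73% of all genes), led by Mfsd2a (2.31 ± 0.44) and Foxq1 (1.52 ± 0.42). Of the other targets, Sp5 fell by 3.41 ± 0.75 and Ccnd1 rose by 0.42 ± 0.14 at 7 dpi. The rise of Ccnd1 was below the median of the endothelial markers (0.58) and was not examined with libraries scaled to them.

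**Figure D4:**
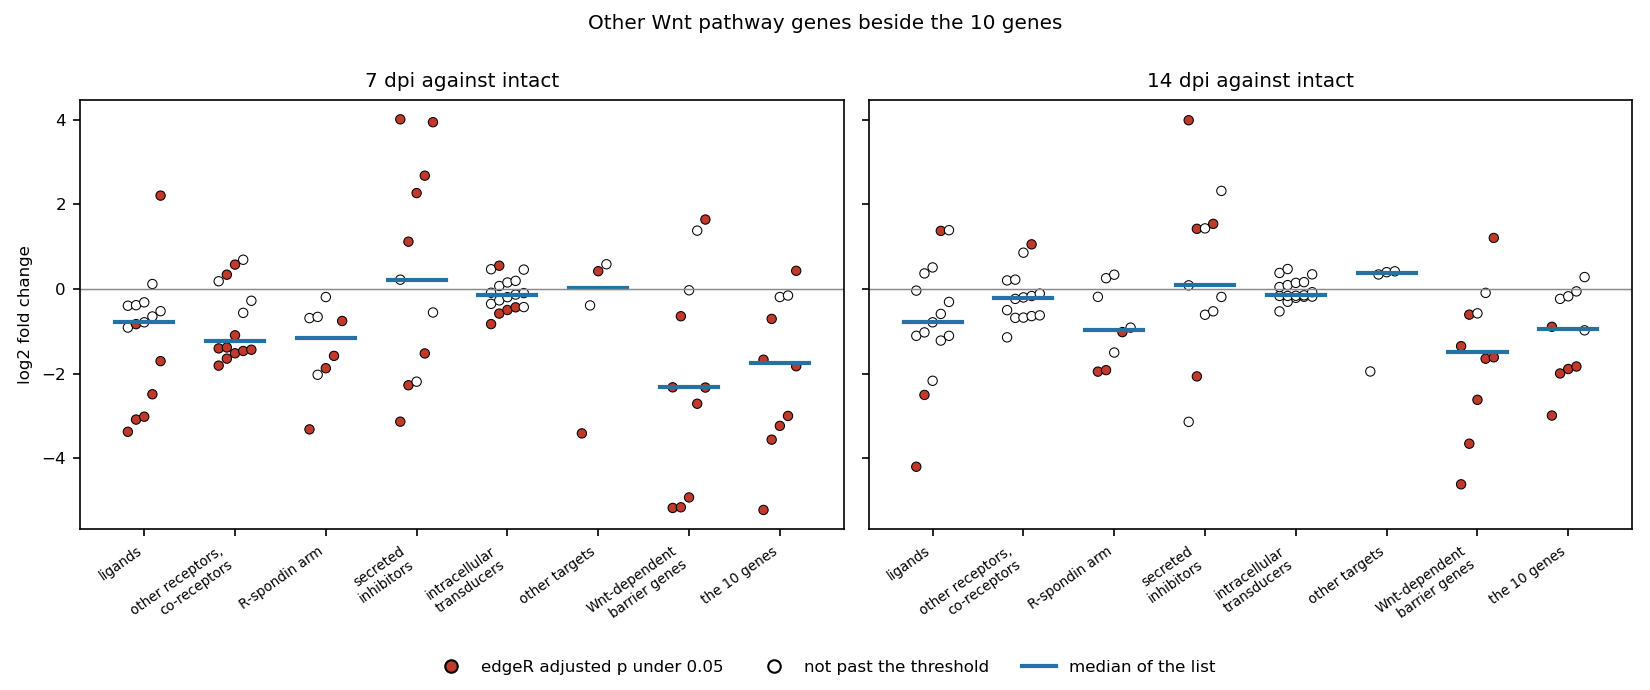
Log2 fold change (vertical axis) of each tested gene of the wider pathway list, by role, beside the 10 genes, at 7 dpi (left) and 14 dpi (right) against intact nerve; filled points passed an edgeR adjusted p of 0.05 and bars are list medians. Intracellular transducers lie near 0 (median -0.13 at 7 dpi). The barrier genes (-2.32) and the 10 genes (-1.75) have the lowest medians at 7 dpi; at 14 dpi the barrier genes (-1.48) are followed by the R-spondin arm (-0.96) and the 10 genes (-0.93).

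The KO comparison asks whether these genes change when endothelial cells lose Plxnd1, the receptor of class 3 semaphorins. Plxnd1 itself averaged 150.7 ± 16.65 CPM in KO and 339 ± 13.45 CPM in WT (SD, n = 3 each), a fall of 1.23 ± 0.10 (edgeR adjusted p = 1.29e-04); counts cover the whole gene, whatever part was deleted. In the Tomato libraries Plxnd1 was higher at 7 dpi than in intact nerve, by 1.46 ± 0.17 (4.25e-06). Of the 10 Wnt genes 0 were lower and 0 higher in KO by edgeR, against 0.179% and 0.129% of all genes tested. DESeq2 also called 0, and 2 had an unadjusted edgeR p under 0.05, as did 11.5% of all genes.

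Those 2 were Nkd1 and Fzd6. Nkd1 had 3.12, 2.97 and 2.996 CPM in KO, against 5.37, 3.23 and 7.32 CPM in WT. It was the 1 gene of the 10 for which the KO libraries were all lower than the WT libraries, which held for 6.30% of all genes. The log2 fold change was -0.89 ± 0.33 (edgeR adjusted p = 0.331; 95% interval -1.61 to -0.17), and the exact two-sided permutation p was 0.1, which 3 libraries against 3 cannot go below. Fzd6 had 78.3, 99.4 and 87.1 CPM in KO, against 90.1, 86.2 and 115 CPM in WT, and its groups overlapped (-0.24 ± 0.10, adjusted p = 0.422).

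The other effectors and targets overlapped between genotypes. Lef1 had 8.003, 7.39 and 3.87 CPM in KO, against 6.501, 8.14 and 10.7 CPM in WT (-0.40 ± 0.31, edgeR adjusted p = 0.642; interval -1.08 to 0.27). Axin2 had 1.04, 1.502 and 1.29 CPM in KO, against 0.973, 1.24 and 1.55 CPM in WT (-0.12 ± 0.47, interval -1.14 to 0.89). Tnfrsf19 had 3.45, 2.82 and 1.14 CPM in KO, against 4.20, 1.73 and 2.82 CPM in WT (-0.14 ± 0.47, interval -1.15 to 0.88). These low counts leave intervals of about a doubling or halving for Axin2 and Tnfrsf19. Tcf7 spanned 1.70 to 7.87 CPM in KO and 2.69 to 7.97 CPM in WT (-0.76 ± 0.39, adjusted p = 0.477), and Apcdd1 10.6 to 13.9 CPM in KO and 9.61 to 18.7 CPM in WT (-0.32 ± 0.20, adjusted p = 0.575).

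The receptors were measured more precisely. Fzd4 had 193, 149 and 165 CPM in KO, against 219.6, 175 and 161 CPM in WT, with a log2 fold change of -0.03 ± 0.11 and a 95% interval of -0.27 to 0.21. Lrp6 had 19.4, 22.1 and 22.4 CPM in KO, against 18.9, 21.9 and 21.9 CPM in WT (-0.02 ± 0.15, interval -0.36 to 0.31). Lrp5 followed the batch, with 24.6 to 25.6 CPM in the 3 Cherry libraries of batch 1133 and 9.43 to 11.5 CPM in the 3 of batch 1292, and with batch in the model its fold change was -0.13 ± 0.16 (interval -0.48 to 0.22). All 10 fold changes were below 0, with a median of -0.19, as were 8344 of the 16227 genes tested, whose median was -0.01; without the batch term Lrp5, Lrp6 and Axin2 were above 0, and with the Y-linked sum as an added term Lrp6, Lef1, Tcf7, Axin2 and Tnfrsf19 were. Scaling by library size gave 16 genes higher and 36 lower, against 21 and 29 with TMM. Of the 66 other pathway genes tested in these libraries 0 passed by edgeR and 8 had an unadjusted p under 0.05, a share near the 11.5% of all genes. All 8 Schwann cell markers were also below 0 in KO, with a median of -1.90 and sums of 29.2, 104.2 and 18.3 CPM in KO, against 125.2, 39.6 and 289.3 CPM in WT. None of them passed (S100b, -2.24 ± 0.50, had the lowest edgeR adjusted p, 0.116), and their part in the values of the 10 genes was not tested.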

How the data were processed

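The values are whole-number counts per gene, in a table for each experiment, as deposited, and a further Cherry table holds counts that ComBat-Seq had adjusted for batch, per the file headers. The submitters' processing notes list featureCounts 1.6.4, STAR 2.5.3a, Trimmomatic 0.39 and, for bulk data unexplained, Cell Ranger 3.0.2, and name mm10 (GRCm38). Strand setting, annotation release and multimapping rules were not found in the labels or headers. Exons of Lef1, Axin2 and Fzd6 overlap an antisense gene model.

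Counts as deposited were tested in R 4.3.3 with edgeR 4.0.16, by its robust quasi-likelihood F test after TMM scaling and filterByExpr, with the labelled batch in the model. The 14 Tomato libraries shared 1 fit and the 6 Cherry libraries had their own. P-values were Benjamini-Hochberg adjusted over all genes, with calls under 0.05; the script was tested on simulated data. The SE was taken as |log2 fold change| / √F, and 95% intervals come from the same fit. Permutation tests were exact and two-sided, on log2(CPM + 1). Levels per length are CPM per kilobase of exon. Replicates are libraries, which may in part be technical, and they differed by more than sampling noise (chi-square per degree of freedom 15.4 to 121 over 32 pairs). Replicate numbers follow accession order and pair nothing.

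The 10 genes, the pathway and marker lists and the naming rule were chosen with earlier results of these data known. The rule named all 10 genes, in each pathway sublist up to 3 called rises and 3 falls, Ctnnb1, Tcf7l2, ligands at 1 CPM or more, 5 barrier genes, and the 3 genes of highest r with Lef1, Axin2, Tnfrsf19 and Fzd4 over genes averaging 3 or more in log2 CPM; not all that it allows are printed. Alternatives were other scalings, no low-count filter, DESeq2 1.42.0, no batch term, each batch alone, only the 2 groups compared, perineurial and Y-linked covariates, the ComBat-Seq counts and leaving out each library.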

Additional observations from a re-analysis of the deposited data

Results flagged for a closer look

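For 5 genes the change from intact nerve differed between 14 and 7 dpi by the edgeR test of 14 dpi against 7 dpi. The difference on the log2 scale was 2.23 for Tnfrsf19, 1.56 for Nkd1, 1.40 for Axin2, 1.11 for Lef1 and 0.777 for Apcdd1. No library stood apart from its group by Dixon's criterion in the 30 sets of 4 or 5 libraries examined for the 10 genes.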

How the results depend on the processing

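Lef1, Axin2, Nkd1 and Tnfrsf19 kept their fall and their call at 7 and 14 dpi under every alternative tried. The count of the 10 genes called at 7 dpi was 4 with the perineurial covariate and 5 in batch 1133 alone, and between 14 and 7 dpi it was 2 with that covariate and 3 in either batch alone. The cause was not tested, other than that a single batch holds fewer libraries. Counts over all genes at 7 dpi were 670 with the perineurial covariate, 4122 with the Y-linked covariate and 2042 in batch 1133. At 14 dpi they were 1267 with the perineurial covariate, 795 in batch 1133 and 1500 in batch 1292. Between 14 and 7 dpi they were 3238 with DESeq2, 1226 with no batch term, 130 with the perineurial covariate, 366 in batch 1133, 726 in batch 1292 and 1305 to 1901 with 1 library left out. In the KO comparison, 50 genes passed, and 230.0 with no filter, 421 with DESeq2, 5 with no batch term, 26 with the perineurial covariate, 9 with the Y-linked covariate, 550.0 with the ComBat-Seq counts and 6 to 40.0 with 1 library left out; none of the 10 was among them. Of the called values reported, the Fzd6 rise at 7 dpi turned, to -0.10 (adjusted p = 0.490) scaled to endothelial markers. Fzd4 at 14 dpi was called as lower under that scaling (-0.44, adjusted p = 0.0206). At 14 dpi, batch 1133 alone gave 0.0699 for Fzd4 and 0.19 for Lrp5, and Lrp5 ran from -0.19 to 0.0597 with 1 library left out. Between 14 and 7 dpi, Fzd4 was -0.0068 with DESeq2 size factors, -0.0085 by library size, -0.0047 with DESeq2, -0.12 with no batch term, -0.17 in batch 1292 and -0.0377 to 0.0970 with 1 library left out. There Fzd6 was 0.11 scaled to endothelial markers and 0.0056 with the perineurial covariate, and Lrp5 -0.0657 in batch 1292. In the KO comparison with no batch term, Lrp5 was 0.31, Lrp6 0.0289 and Axin2 0.0329. With the Y-linked covariate, Lrp6 was 0.0163, Lef1 0.10, Tcf7 0.22, Axin2 0.10 and Tnfrsf19 0.42. With 1 library left out, Fzd4 ran from -0.0975 to 0.0393, Lrp6 from -0.0753 to 0.0320, Lef1 from -0.91 to 0.12 and Tnfrsf19 from -0.50 to 0.22. Axin2 and Tnfrsf19 in the Cherry libraries rest on 19 to 108 counts, which limits what can be detected there. No paired analysis was possible because the replicate numbers are given in accession order and pair no libraries.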
